A study of Mus musculus with 10 samples.

Results

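AP-1 is a dimeric transcription factor built from basic leucine zipper (bZIP) proteins of the Fos and Jun families, which pair with each other and with related bZIP proteins. The values below are for 10 mouse genes chosen by name: the Fos family (*Fos*, *Fosb*, *Fosl1*, *Fosl2*), the Jun family (*Jun*, *Junb*, *Jund*) and the bZIP partners *Atf3*, *Batf* and *Maff*. Each of the 10 symbols has 1 row among the 53974 genes of the RNA-seq table, and 11 of the 16600 ATAC-seq regions lie within 1000 bp of an end of 9 of these genes, with none at *Batf*. The rule uses gene names and positions alone. The cells came from retinas of C57BL/6 mice aged 8 to 10 weeks and homozygous for a floxed *Arid1a* allele (Arid1a fl/fl), and *Arid1a* encodes a DNA-binding subunit of the SWI/SNF chromatin remodelling complex. AAV2 driving GFP (group WT, genotype Arid1a fl/fl) or Cre (group cKO, genotype labelled Arid1a del/del) from the broadly active CMV promoter was injected into the vitreous body 2 weeks before optic nerve crush (ONC), and the study's methods give a higher titre for AAV2-GFP than for AAV2-Cre. At 3 days after ONC, retinas were pooled, and living cells that bound an antibody to Thy1.2 were sorted to enrich retinal ganglion cells (RGCs). All groups therefore carried the floxed allele, an AAV2 vector and the crush, and no uninjured retina was in the series. For RNA-seq there were 3 libraries per label, and for ATAC-seq, which reads open chromatin by transposase insertion, 2 per label.

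The RNA of the targeted gene and of cell type markers was looked at first. *Arid1a* RNA was 18.8, 11.7 and 14.2 TPM (a transcript abundance per length, scaled to a fixed sum per library) in the WT libraries and 18.8, 27.9 and 25 TPM in the cKO libraries. It was not lower in the libraries labelled cKO, so every RNA direction below is given by label. The log2 fold change was 0.66 (SE 0.28, n = 3 and 3; adjusted p = 0.274 by limma). The 14 RGC markers summed to 189 to 274 TPM in WT and 258 to 292 TPM in cKO libraries. The RGC transcription factor gene *Pou4f2* was listed at 0 in all WT libraries and reached 0.143 TPM in 1 cKO library, *Pou4f3* did not exceed 0.0532 TPM, and the glutamate transporter gene *Slc17a6* did not exceed 1.57 TPM. *Thy1* itself was 52.0 to 88.5 TPM in WT and 94.5 to 129 TPM in cKO libraries. Markers of Müller glia and astrocytes summed to 11360 to 20940 TPM in WT and 7393 to 17970 TPM in cKO libraries, and those of rods to 12710 to 17690 and 26140 to 49040 TPM. Of the other RGC markers, *Rbpms* was at 1.82 to 6.43 TPM, *Tubb3* at 3.45 to 12.0 TPM and *Nefl* at 5.47 to 20.6 TPM. Higher were *Gap43*, at 24.3 to 67.9 TPM, and *Isl1*, also on the bipolar list, at 51.9 to 104 TPM. *Pou4f2*, *Pou4f3* and *Slc17a6* were thus at or near 0 while glial and rod markers were high, and the samples are called sorted retinal cells here. In bulk samples, fewer cells of a type and less RNA per cell cannot be told apart. Nothing in the labels says that same-group libraries came from separate animals, so p-values measure the spread between these libraries, which may be technical.

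AP-1 genes are immediate early genes: many are switched on within minutes of a stimulus through kinases of the ERK and JNK pathways, which act on factors already bound at their promoters. AP-1 dimers bind the TPA response element TGACTCA, and dimers with ATF proteins prefer the related cAMP response element (CRE) TGACGTCA. After axon injury, JUN and ATF3 are known as parts of the response of RGCs and other neurons, and in glia and immune cells AP-1 factors act in activation.

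The 250 bases before the start site were taken from RefSeq (GRCm38.p6) for 9 of the 10 genes. Those of *Fos*, *Jun*, *Junb*, *Atf3* and *Batf* are shown because the largest RNA levels, the ATAC-seq regions at the promoters and the contrast with *Batf*, which has no region, are described from them. They are the windows chr12:85473640-85473889 on the plus strand (*Fos*), chr4:95052223-95052472 on the minus strand (*Jun*), chr8:84978749-84978998 on the minus strand (*Junb*), chr1:191183334-191183583 on the minus strand (*Atf3*) and chr12:85686470-85686719 on the plus strand (*Batf*). Capitals mark the CRE core TGACGT on either strand and the element TGACATCA, known from the *Jun* promoter.
Fos: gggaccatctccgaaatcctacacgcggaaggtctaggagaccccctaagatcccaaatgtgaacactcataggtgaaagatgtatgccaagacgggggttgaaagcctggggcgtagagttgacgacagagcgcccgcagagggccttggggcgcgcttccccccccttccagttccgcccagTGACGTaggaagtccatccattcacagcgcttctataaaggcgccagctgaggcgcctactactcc
Jun: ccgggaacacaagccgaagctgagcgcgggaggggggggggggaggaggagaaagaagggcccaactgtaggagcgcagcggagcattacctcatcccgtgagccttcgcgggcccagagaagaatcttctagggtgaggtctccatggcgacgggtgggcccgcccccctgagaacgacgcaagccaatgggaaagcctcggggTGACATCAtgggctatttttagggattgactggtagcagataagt
Junb: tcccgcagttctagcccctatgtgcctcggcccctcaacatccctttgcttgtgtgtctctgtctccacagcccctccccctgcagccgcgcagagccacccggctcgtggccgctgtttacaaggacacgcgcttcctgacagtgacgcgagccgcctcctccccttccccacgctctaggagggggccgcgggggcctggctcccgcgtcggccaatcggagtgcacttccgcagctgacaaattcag
Atf3: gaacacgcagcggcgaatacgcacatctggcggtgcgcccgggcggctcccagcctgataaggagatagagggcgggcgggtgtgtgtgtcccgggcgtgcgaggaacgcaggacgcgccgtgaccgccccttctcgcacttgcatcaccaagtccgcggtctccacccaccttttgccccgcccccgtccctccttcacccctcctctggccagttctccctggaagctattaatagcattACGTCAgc
Batf: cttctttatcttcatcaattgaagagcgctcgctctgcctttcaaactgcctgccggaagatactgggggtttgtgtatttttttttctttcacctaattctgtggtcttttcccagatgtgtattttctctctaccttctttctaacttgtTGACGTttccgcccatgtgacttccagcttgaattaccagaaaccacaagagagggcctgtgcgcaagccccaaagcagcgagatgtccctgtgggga

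With the base before the start site counted as -1, the CRE core began at -66 in *Fos*, at -98 in *Batf* and, on the other strand (ACGTCA), at -8 in *Atf3*, while TGACATCA began at -45 in *Jun*. *Maff* has 3 start sites, and 1 of its windows held the full CRE TGACGTCA at -29 and another held TGACATCA at -45. The core was thus found in 4 of the 11 windows of the 9 genes, against 6.47% of all 32851 RefSeq windows. TGACATCA was in 2 of the 11, against 2.93%. The core, which lies within TGACGTCA, was searched after the sequences had been seen. TGACTCA was in none of the 11 windows of these genes and in 4.46% of all windows, and the CArG box bound by serum response factor was in none and in 1.47%. The GC box GGGCGG, the element of Sp1, was in 8 of the 11 windows, which belong to 7 of the 9 genes, and in 32.7% of all windows. The windows of the AP-1 genes held 46.4% to 68.8% G and C, with a median of 61.2%, against a median of 52.4% over all windows. The motif shares were not matched for this. A match is a run of letters on either strand and does not show binding, and a missing match covers these 250 bases alone.

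All 10 genes had a lower mean RNA level in the libraries labelled cKO than in those labelled WT, with log2 fold changes from -1.17 (*Junb*) to -0.43 (*Fosl2*) on the log2(TPM + 1) scale, and a median of -0.96. Of all 17555 genes tested, 38.9% had a fold change below 0 and the median was 0.16. After scaling by the median of ratios, all 10 remained below 0, with a median of -1.08, against 49.2% and a median of 0.01 over all genes. None of the 10 passed an adjusted p of 0.05 by limma, and 3 (*Fos*, *Fosb*, *Junb*) had an unadjusted p under 0.05 in the lower direction. Over all genes, 6.45% were lower at this unadjusted threshold, and at the adjusted one 0 (0%) were lower and 1 (0.00570%) higher. A fit with replicate numbers as blocks raised the unadjusted count to 5, adding *Jun* and *Atf3*, against 8.52% of all genes, and scaling also gave 5, adding *Jun* and *Maff*, against 9.54%. The cKO library was below the WT library of the same replicate number in 3 of 3 pairs for 8 of the 10 genes, against 15.8% of all genes, with *Fosl1* and *Batf* at 2 of 3. In both groups replicate 3 was the highest library for *Fos*, *Fosb*, *Jun* and *Junb*, a pattern that 17.7% of all genes had.

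**Figure D1:**
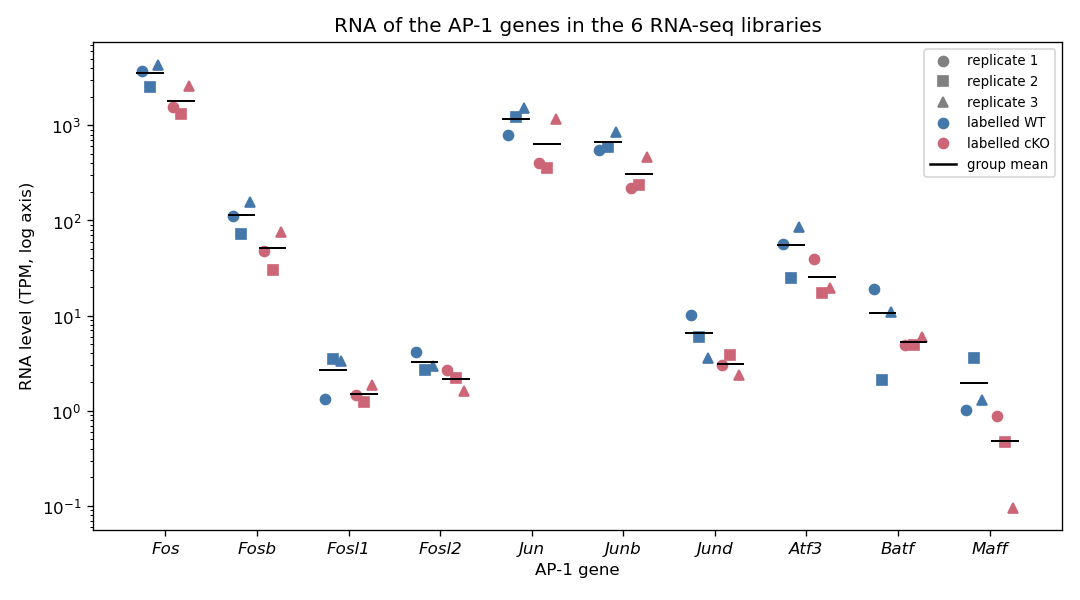
RNA level in TPM (log axis) of the 10 AP-1 genes in each of 3 WT (blue) and 3 cKO (red) libraries; marker shape gives the replicate number and the bar the group mean. *Fos*, *Jun* and *Junb* lie at 219 TPM or more in every library, and replicate 3 is the highest of its group for *Fos*, *Fosb*, *Jun* and *Junb* in both groups.

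In the Fos family, whose proteins bind DNA only when paired with a partner such as a Jun protein, *Fos* was the most abundant. Its level was 3729, 2514 and 4346 TPM in WT replicates 1 to 3 and 1544, 1320 and 2571 TPM in cKO replicates 1 to 3. The highest cKO library stood just above the lowest WT library, so the groups overlapped. *Fos* stood at ranks 21, 31 and 17 among all genes of the WT libraries and at 65, 71 and 34 in the cKO libraries. On the log2 scale cKO differed from WT by -0.99 (SE 0.35; adjusted p = 0.209 by limma; exact permutation p = 0.2), and with the replicate block the adjusted p was 0.115 by limma.

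*Fosb*, which encodes a related activator, was at 112, 72.0 and 155 TPM in WT and 47.9, 30.4 and 75.6 TPM in cKO libraries. Here too only the highest cKO library exceeded the lowest WT library, and replicate 3 was the highest of each group. The WT value was 2.34, 2.37 and 2.05 times the cKO value in pairs 1 to 3, a narrower range than for *Fos*, *Jun* or *Junb*. Its log2 fold change was -1.15 (SE 0.41; adjusted p = 0.21 by limma; exact permutation p = 0.2), and with the block the adjusted p was 0.076 by limma, the lowest adjusted p of the 10 genes under any setting tried.

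The other Fos family genes, which encode the Fos-related antigens FRA1 and FRA2, were low. *Fosl1* was at 1.33, 3.47 and 3.34 TPM in WT and 1.46, 1.25 and 1.85 TPM in cKO libraries, with overlapping groups and a log2 fold change of -0.51 (SE 0.35; adjusted p = 0.474 by limma), which was -0.81 without WT replicate 1. The gene overlaps *Ccdc85b* in the annotation, so reads of the pair may not be separable. *Fosl2* was at 4.14, 2.70 and 2.96 TPM in WT and 2.65, 2.23 and 1.61 TPM in cKO libraries. The *Fosl2* groups did not overlap, but the lowest WT and the highest cKO library were close, and the log2 fold change was -0.43 (SE 0.29; adjusted p = 0.471 by limma).

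In the Jun family, whose proteins pair with Fos proteins and with each other, *Jun* was next to *Fos* in mean level. It was at 791, 1230 and 1504 TPM in WT and 397, 359 and 1172 TPM in cKO libraries. WT replicate 1 lay below cKO replicate 3, while the other cKO libraries were far below all WT libraries. The difference was -1.04 on the log2 scale (SE 0.49; adjusted p = 0.31 by limma; exact permutation p = 0.2), and the adjusted p was 0.156 with the block by limma. Without cKO replicate 3 the difference was -1.59, over 1.5 times as large.

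*Junb*, which encodes a Jun protein that can weaken the action of JUN in some dimers, had the clearest separation. Its levels were 546, 594 and 856 TPM in WT and 219, 236 and 466 TPM in cKO libraries, so every cKO library lay below every WT library. The WT value was 2.49, 2.52 and 1.84 times the cKO value in the 3 pairs. This gave a log2 fold change of -1.17 (SE 0.35; adjusted p = 0.165 by limma), and with the block the adjusted p was 0.0795 by limma. The exact two-sided permutation test gave p = 0.1, the smallest that 3 against 3 libraries allow. *Junb* kept an unadjusted p under 0.05 in all 12 alternative settings and passed the adjusted threshold in none.

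*Jund*, the Jun gene usually expressed without a stimulus, was the lowest of the family at 10.1, 5.96 and 3.60 TPM in WT and 3.03, 3.84 and 2.40 TPM in cKO libraries. The groups overlapped, and the log2 fold change was -0.81 (SE 0.39; adjusted p = 0.313 by limma; exact permutation p = 0.2). Without WT replicate 1 it was -0.48.

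Among the partners, *Atf3* encodes a stress-induced repressor and activator. It was at 56.0, 24.8 and 85.6 TPM in WT and 39.8, 17.3 and 19.4 TPM in cKO libraries, with 1 cKO library between the WT values. Its log2 fold change was -1.02 (SE 0.51; adjusted p = 0.33 by limma; exact permutation p = 0.2). The pair ratios of WT over cKO were 1.41, 1.43 and 4.41, so replicate 3 carried most of the difference, and with any 1 library left out the log2 fold change lay between -1.50 and -0.63.

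*Batf*, which encodes an AP-1 factor known from T and B cells, was at 18.8, 2.10 and 10.8 TPM in WT and 4.87, 4.94 and 6.01 TPM in cKO libraries. The cKO libraries were close together and inside the WT range. The groups differed by -0.52 on the log2 scale (SE 0.65; adjusted p = 0.698 by limma; exact permutation p = 0.6), by 0.05 without WT replicate 1 and by -1.29 without WT replicate 2. The WT order of *Batf* was that of the summed T cell markers, which were 2753, 902 and 2143 TPM in WT and 572, 234 and 510 TPM in cKO libraries. The cKO orders differed, with *Batf* highest in cKO replicate 3 and the T cell sum highest in cKO replicate 1. The part of T cells in the *Batf* values was not tested.

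*Maff* encodes a small Maf protein, which lacks an activation domain of its own. It was at 1.02, 3.61 and 1.29 TPM in WT and 0.882, 0.467 and 0.0954 TPM in cKO libraries, so the groups did not overlap. It entered the test through the WT libraries alone, since no cKO library reached 1 TPM, so the filter favoured a difference in this direction. For *Maff* the log2 fold change was -0.94 (SE 0.41; adjusted p = 0.28 by limma; exact permutation p = 0.1). With a pseudocount of 0.1 in place of 1 it was -1.91, and without WT replicate 2, the library with 3.61 TPM, it was -0.57. With *Junb* and *Fosl2*, *Maff* was 1 of 3 genes whose groups did not overlap in the lower direction, against 7.18% of all genes.

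**Figure D2:**
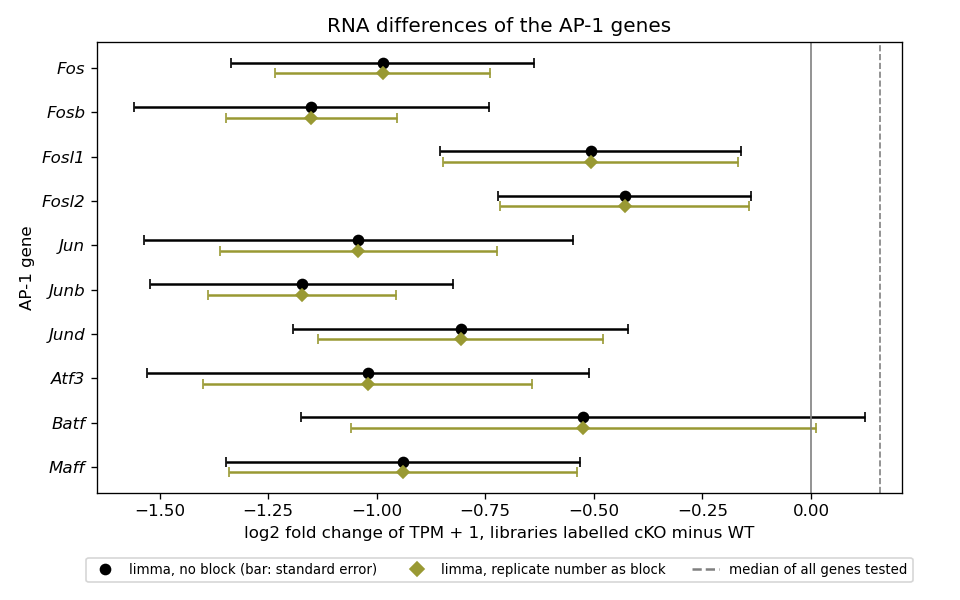
Log2 fold change of TPM + 1 (cKO minus WT) of each AP-1 gene with its standard error, from limma without a block (black) and with replicate numbers as blocks (olive); the grey line is 0 and the dashed line the median of all genes tested, 0.16. All 10 estimates lie left of 0. The block leaves the estimates as they are and narrows every bar, least for *Fosl1*, *Fosl2* and *Maff*.

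TPM is scaled per length, so levels can be compared between genes. The order of the group means was the same in both groups, namely *Fos*, *Jun*, *Junb*, *Fosb*, *Atf3*, *Batf*, *Jund*, *Fosl2*, *Fosl1* and *Maff*. Neighbours in this order overlapped between libraries for *Jun* and *Junb*, for *Fosb* and *Atf3*, for *Jund* and *Fosl2* and for *Fosl2* and *Fosl1* in each group, and in WT also for *Batf* and *Jund* and for *Fosl1* and *Maff*. Summed over the 10 genes, the level was 5269, 4454 and 6969 TPM in WT and 2260, 1976 and 4315 TPM in cKO libraries. No cKO library reached the lowest WT library, although the highest cKO library came close to it. The sum made 0.557% ± 0.128 of the library's TPM in WT and 0.286% ± 0.127 in cKO (SD, n = 3 each), and the ratio of the mean sums was 1.95. The make-up of this sum differed little between groups. Fos family genes made 65.3% ± 7.41 of it in WT and 66.8% ± 4.83 in cKO, and Jun family genes 33.5% ± 7.78 and 31.9% ± 5.49 (SD, n = 3 each). The ratio of *Fos* to *Fosb* was 28.0 to 34.9 in WT and 32.3 to 43.4 in cKO libraries, and that of *Jun* to *Junb* 1.45 to 2.07 and 1.52 to 2.52.

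Marker RNA of several other cell types was lower in the cKO group, as the AP-1 sum was. Within a group the order could differ: cKO replicate 3 had the highest AP-1 sum of its group and the lowest myeloid sum. Of 11 T cell markers, 11 had a fold change below 0 and 9 an unadjusted p under 0.05, of 12 myeloid markers 12 and 5, and of 8 Müller glia and astrocyte markers 8 and 2, whereas all 10 rod markers were higher, each with an unadjusted p under 0.05 (limma). Of all genes, 38.9% were below 0, and 6.45% were lower and 11.9% higher at this threshold. All 5 B cell markers tested were below 0, 4 of them at an unadjusted p under 0.05, and they summed to 81.2 to 235 TPM in WT and 34.4 to 55.4 TPM in cKO libraries. The 6 endothelial and pericyte markers tested and the 5 erythrocyte markers were also below 0, with 1 and 0 at that threshold. Myeloid markers summed to 1278 to 2406 TPM in WT and 698 to 990 TPM in cKO libraries. Per summed TPM of the glial markers, a division chosen after the values were seen, the AP-1 sum was 0.464, 0.243 and 0.333 in WT and 0.306, 0.239 and 0.240 in cKO libraries. The groups overlapped on this scale, and the ratio of the means was 1.32 in place of 1.95. Per summed TPM of the myeloid markers the ratio of the means was 0.854, with cKO replicate 3 at 6.18 and the other libraries at 2.28 to 3.48, and without cKO replicate 3 it was 1.31. Per summed TPM of the T cell markers it was 0.484. The markers of these lists were themselves lower in cKO, so the division favoured a smaller ratio. No list that was higher in cKO, such as that of rods, was used as a divisor. Among the lists used, the ratio depended on the list and, for the myeloid markers, on 1 library. The undivided AP-1 sum was lower in every cKO library than in every WT library. The part of these cell types in the AP-1 values was not tested.

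**Figure D3:**
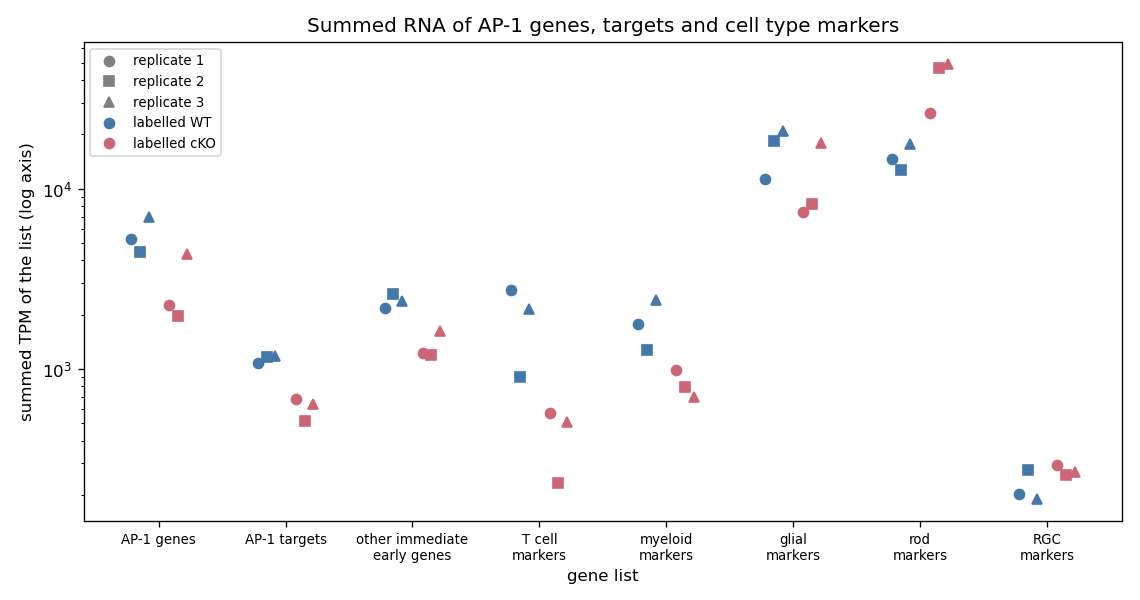
Summed TPM (log axis) of the AP-1 genes, 2 related gene lists and the markers of 5 cell types in each of 3 WT (blue) and 3 cKO (red) libraries, with marker shape giving the replicate number. The AP-1, target, immediate early, T cell and myeloid sums are lower in every cKO library than in every WT library, the glial and RGC sums overlap, and the rod sums are higher in every cKO library.

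Of 31 textbook AP-1 target genes, 22 entered the test, 20 had a fold change below 0 and at an unadjusted p under 0.05 there were 12 lower and 0 higher, with a median log2 fold change of -0.92. Over all genes, 38.9% were below 0 and 6.45% were lower at this threshold. None passed the adjusted threshold by limma. *Fasl*, the death ligand also made by T cells, was at 40.3, 11.0 and 37.6 TPM in WT and 7.61, 4.11 and 5.48 TPM in cKO libraries (log2 fold change -2.03, SE 0.52; adjusted p = 0.139 by limma). Its groups did not overlap, and its WT replicate 2 was low as for the T cell markers. *Plaur*, the urokinase receptor gene, was at 24.4, 9.75 and 15.8 TPM in WT and 6.19, 3.18 and 2.76 TPM in cKO libraries (log2 fold change -1.78). *Cdkn1a*, the p21 cell cycle inhibitor gene, was at 19.1, 16.8 and 11.7 TPM against 7.06, 2.65 and 4.73 TPM (-1.58), and *Icam1*, an adhesion molecule gene, at 46.1, 25.5 and 65.9 TPM against 15.6, 7.57 and 20.9 TPM (-1.58). In these genes, too, no cKO library reached the lowest WT library. *Mmp3*, a classical AP-1 target, was listed at 0 in all 6 libraries.

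Of 16 other immediate early genes, all were tested, 14 had a fold change below 0 and at an unadjusted p under 0.05 there were 4 lower and 0 higher, with a median of -0.67, against the same 38.9% and 6.45% of all genes. *Ier2* was at 584, 1087 and 320 TPM in WT and 288, 282 and 199 TPM in cKO libraries (log2 fold change -1.21, SE 0.44; adjusted p = 0.216 by limma), so all cKO libraries lay below all WT libraries. *Btg1*, an antiproliferative gene, had a log2 fold change of -1.20 (SE 0.31; adjusted p = 0.14 by limma). *Egr2*, a zinc finger factor gene, was at 14.2, 4.11 and 22.9 TPM against 6.60, 3.56 and 4.21 TPM and overlapped. *Ier5* had its large mean difference, -1.67 on the log2 scale, from WT replicate 2 alone, where it stood at 103 TPM against 3.31 to 7.02 TPM in the other 5 libraries.

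Of 30 other bZIP genes, 26 were tested, 15 had a fold change below 0, and at an unadjusted p under 0.05 there were 2 lower and 2 higher, with a median of -0.08. Over all genes 6.45% were lower and 11.9% higher, so these counts were near the background. *Batf2*, a relative of *Batf*, was at 4.12, 9.19 and 3.21 TPM in WT and 0.953, 0.752 and 0.255 TPM in cKO libraries (log2 fold change -1.89, SE 0.41; adjusted p = 0.124 by limma). Like *Maff*, it entered the test through the WT libraries alone, so the filter favoured a difference in this direction. *Atf5* was lower by 1.68 on the log2 scale, with WT replicate 2 at 54.9 TPM and the other WT libraries at 8.11 and 9.09 TPM. *Mafg*, a partner of the small Maf family like *Maff*, lay the other way, at 13.4, 10.5 and 21.0 TPM in WT and 26.9, 21.9 and 30.8 TPM in cKO libraries (log2 fold change 0.83). *Nrl*, the rod photoreceptor bZIP factor gene and also a rod marker here, had a log2 fold change of 0.92.

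The JNK kinases phosphorylate JUN, and ERK kinases act on the factors that switch *Fos* on. Of 13 JNK pathway genes, 12 were tested, and at an unadjusted p under 0.05 there were 0 lower and 5 higher, with a median of 0.58, against 11.9% of all genes higher at this threshold. After scaling, 3 were higher, against 7.62% of all genes, and the median was 0.41. *Mapk8ip2*, a JNK scaffold gene, was at 19.2, 19.7 and 16.9 TPM in WT and 52.2, 46.3 and 30.8 TPM in cKO libraries (log2 fold change 1.14, SE 0.26; adjusted p = 0.125 by limma). *Mapk10*, the JNK gene largely restricted to neurons, had a log2 fold change of 1.13 with overlapping groups, and the kinase genes *Map3k13* and *Map3k10* had 0.83 and 0.80. Of 18 genes of the ERK and serum response pathway, 6 had a fold change below 0, and the median of 0.04 became -0.11 after scaling. At an unadjusted p under 0.05 by limma, 2 were lower and 1 higher, against 6.45% and 11.9% of all genes. *Elk3*, a ternary complex factor gene, was at 13.1, 11.3 and 16.6 TPM in WT and 5.55, 4.52 and 7.20 TPM in cKO libraries (log2 fold change -1.12, SE 0.29; adjusted p = 0.14 by limma). The kinase gene *Rps6ka1* had -0.92, *Braf* 0.97 and *Srf*, the serum response factor gene, -0.65. Of 11 MAP kinase phosphatase genes, which switch these kinases off, 10 were tested. At the same threshold 0 were lower and 1 was higher, *Dusp8*, with a log2 fold change of 0.87. *Dusp1*, an immediate early phosphatase gene, was at 534, 623 and 669 TPM in WT and 235, 391 and 765 TPM in cKO libraries, so cKO replicate 3 was the highest of all 6. *Dusp2* and *Dusp5* had log2 fold changes of -1.18 and -1.60, with SEs of 1.26 and 1.18. With the replicate block the SEs were 0.3 and 0.447, and both were then lower at an unadjusted p under 0.05 (adjusted p = 0.117 and 0.134 by limma), in place of 0 of this list, with cKO below WT in 3 of 3 pairs. Over all genes, 8.52% were lower at this threshold with the block. No gene of these lists passed an adjusted p of 0.05 by limma.

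For *Fos*, *Jun*, *Junb* and *Batf*, the genes with the most similar pattern were found by Pearson's r of log2(TPM + 1) over the 6 libraries among 12666 tested genes with a mean TPM of at least 5. They were *Trim12c*, *Anxa6* and *Serpinb9* for *Fos* (r = 0.998, 0.997 and 0.996), *Mgat1*, *Parp3* and *Eno1b* for *Jun* (r = 0.999, 0.998 and 0.998) and *Sppl2a*, *Rab8b* and *Rab11fip1* for *Junb* (r = 0.998, 0.992 and 0.990). For *Batf* they were *Itga4*, *Rasgrp3* and *Bcl11b* (r = 0.985, 0.982 and 0.976), of which *Bcl11b* is known from T cells. These values describe the 6 libraries, which share 2 groups, and *Fos*, *Jun* and *Junb* had 126, 123 and 87 genes with r of at least 0.95, against 14 for *Batf*.

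In ATAC-seq, the deposited region table gives 1 value per group, the log2 of the mean normalized reads, so no replicate spread was at hand and no test was made. The peak lists of single libraries stood apart from each other. Of the 76522 peaks of WT library 1, 13.6% overlapped a peak of WT library 2, and 24.4% of the 42265 peaks of WT library 2 overlapped one of WT library 1. Of the 55902 and 68317 peaks of the cKO libraries, 3.39% and 2.77% overlapped one of the other cKO library. One of WT library 1, the longest list, was overlapped by 3.48% and 3.27%, and one of WT library 2 by 2.48% and 2.22%.

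All 11 regions at AP-1 genes had fewer normalized reads in cKO than in WT, by 2.06 to 5.16 on the log2 scale, with a median difference of -2.97. The background moved the same way: 59.8% of all regions and 89.0% of the 8001 regions within 1000 bp of a gene end were lower in cKO by at least 1, and the median over regions at gene ends was -2.50. Lower by at least 2 were 11 of 11 AP-1 regions and 67.6% of regions at gene ends. After taking off the median over all regions, -1.57, 7 of 11 AP-1 regions were lower by at least 1, against 27.2% of all regions. That share is not for gene ends alone, where the differences before this step had a median of -2.50 and a lower quartile of -3.22. The share at gene ends was not taken on this scale. All 11 overlapped a peak in both WT libraries and 1 a peak in a cKO library, as 7277 and 1475 of the 8001 regions at gene ends did. Of the regions that both WT peak lists but neither cKO peak list hold, 95.6% were lower by at least 1. All AP-1 regions but that at *Fosl2* are of this class, and their direction was that of nearly all of it. The class is picked by its lack of cKO peaks, which favours lower cKO values.

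The region over the *Fos* start site (chr12:85473314-85474007 on GRCm38) had 63.6 mean normalized reads in WT and 1.78 in cKO. This was a difference of -5.16 on the log2 scale, and only 0.446% of all regions had a lower difference. The region covered all 250 bases of the *Fos* window shown above. Another region beyond the far end of *Fos* (chr12:85478000-85479105) had 54.9 and 10.1 reads, a difference of -2.44, so the regions at both ends of the gene differed in size of change.

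The Jun family held the highest WT values. The region over *Jun* (chr4:95050585-95053387) had 263 reads in WT, rank 20 of the 16600 regions, and 20.4 in cKO, a difference of -3.69, and it also lies near an end of the antisense gene *Junos*. It covers the whole *Jun* window with TGACATCA. The region inside *Jund* (chr8:70698385-70699492) had 138 and 7.21 reads, a difference of -4.26, although *Jund* RNA was low in every library. The region over the *Junb* start site (chr8:84978297-84978932) had 48.8 and 6.23 reads, a difference of -2.97, and covered 184 of the 250 bases shown.

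At *Fosb*, the region over the start of the annotated gene span (chr7:19310071-19310472) had 35.3 and 4.23 reads. That beyond the far end (chr7:19300863-19301777), also near *Gm26802*, had 40.8 and 4.72 reads, and the differences were -3.06 and -3.11. The start site used for the *Fosb* promoter window lies further inside the gene, and the region at the start covered 225 of the 250 bases of that window. The region 99 bp before *Fosl2* (chr5:32134997-32136373) had 67.2 and 9.45 reads, a difference of -2.83, and was the 1 region of the 11 with a peak in a cKO library. At *Fosl1*, the region (chr19:5456864-5457954) lay outside the gene, also near an end of *Ccdc85b*, with 38.3 and 9.19 reads and the smallest difference, -2.06.

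The region over the *Atf3* start site (chr1:191182858-191183736) had 41.9 and 8.00 reads, a difference of -2.39, and held the whole *Atf3* window with its CRE core. The region at *Maff* (chr15:79347175-79348132) had 28.1 and 6.23 reads, a difference of -2.17, and held the *Maff* window with the full CRE. *Batf* had no region, and its window shown above lay in none.

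**Figure D4:**
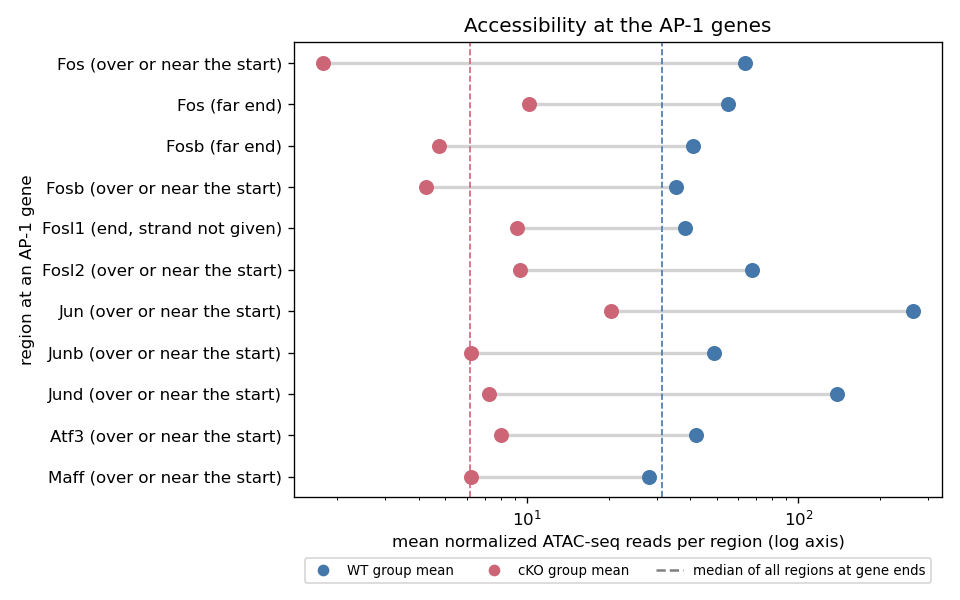
Mean normalized ATAC-seq reads (log axis) of WT (blue) and cKO (red) in the 11 regions within 1000 bp of an end of an AP-1 gene, named by gene and by position at the start or the far end (for *Fosl1* the strand was not given); dashed lines are the medians of all regions at gene ends, 31.3 in WT and 6.15 in cKO. The cKO value lies left of the WT value in every region, farthest at the *Fos* start, and *Jun* and *Jund* have the highest WT values.

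The order of the RNA and ATAC-seq differences was not the same. *Junb*, with the largest RNA difference (-1.17), had a region at the median of the 11, and *Jund*, with an RNA difference of -0.81, had the second largest. *Maff* and *Atf3* had RNA differences of -0.94 and -1.02 and region differences of -2.17 and -2.39. In the peak lists, 10 of the 10 genes had a peak within 1000 bp of an end in WT library 1 and 9 in WT library 2, all but *Batf*. Only *Batf* had one in cKO library 1, and *Fos*, *Fosl2* and *Jund* had one in cKO library 2. Of all 15514 tested genes with a position, 65.1%, 58.2%, 13.6% and 13.9% had a peak in these 4 libraries. The cKO peaks at *Fos*, *Fosl2* and *Jund* were 376, 216 and 290 bp wide, against widest WT peaks of 910, 1315 and 1100 bp, while the cKO peak at *Batf* was 758 bp wide, against 242 bp in WT library 1.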

How the data were processed

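RNA-seq reads were trimmed and quantified by the authors with Salmon 1.0.0 and summed to genes, and the deposited values are TPM, which keep no sequencing depth, so no counting error is given. ATAC-seq reads were aligned by the authors with Bowtie2 2.3.5.1 to GRCm38, and the deposited region table holds, for each group, a log2 mean of normalized reads (DiffBind). Peaks were deposited as positions per library, and MACS2 2.2.5 is listed in the submitters' processing notes. Columns with the authors' own fold changes and p-values were not used, and neither was their RNA comparison table.

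The 17555 of 53974 genes that reached a TPM of 1 in 3 or more libraries, all 10 AP-1 genes among them, were compared on log2(TPM + 1) with limma 3.58.1 in R 4.3.3 (trend, two-sided) and adjusted by Benjamini-Hochberg over all genes tested, at 0.05. This scale understates changes of low genes. The script was tested on simulated data. A count test could not be run on TPM. Same-numbered WT and cKO libraries deviated together (correlations of 0.334, 0.101 and 0.425 across genes), so the numbers were treated as pairs, as a hint from the data. WT replicate 1 and cKO replicate 2, which do not share a number, correlated at 0.193. The fit with the replicate block is given beside a result where it moves a count by over 1.5 times. Alternatives were a pseudocount of 0.1, no filter, a filter on a mean TPM of 5, median-of-ratios scaling, no trend, leaving out each library, 3000 bp or the start site alone for regions, a difference of 2, and taking off the median over regions. The members and lists were chosen with earlier results of these data known. Genes named besides the 10 and *Arid1a* are the up to 4 of each list with the largest absolute fold change, the 3 most similar to *Fos*, *Jun*, *Junb* and *Batf*, and defining markers. Of the other marker lists, all 8 cone, all 8 bipolar and 7 of 8 amacrine genes had a fold change above 0. Positions, counted from 1, and promoter windows are from RefSeq GRCm38.p6, and no window was matched for *Fosl1*.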

Additional observations from a re-analysis of the deposited data

How the results depend on the processing

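All 10 AP-1 genes kept a log2 fold change below 0 in every alternative in which they were tested (115 of 116 values), except *Batf*, which was 0.05 without WT replicate 1 and otherwise as low as -1.29, and none passed an adjusted p of 0.05 (lowest 0.076). Leaving out each library in turn gave 1 to 5 AP-1 genes lower at an unadjusted p under 0.05 (main 3): 5 without WT replicate 2, 2 without WT replicate 3 and without cKO replicate 1, and 1 (*Junb*) without cKO replicate 2. Over all genes, these fits called 0 to 1 lower at the adjusted threshold and gave 1034 to 2366 higher and 697 to 1386 lower at the unadjusted one. With no filter on low values, 16 genes were called higher and 8 lower at the adjusted threshold. At the unadjusted one, 1 AP-1 gene was lower, as were 1133 of all 53974 genes. With no trend, 4 genes were called higher. With a mean TPM of at least 5, 6 AP-1 genes were tested and all 6 were below 0. Scaling by the median of ratios moved the median of all genes by 0.15 and turned the ERK list median to -0.11. At the unadjusted p it gave 5 AP-1 genes lower, against 1675 of all genes (9.54%) lower and 1338 higher. The replicate block gave 5 AP-1 genes lower at the unadjusted p, against 8.52% of all genes, and called 1 gene lower at the adjusted one. At the unadjusted p it gave 2 MAP kinase phosphatase genes lower in place of 0 and 3 endothelial markers in place of 1. It added 1 to the lower counts of the other bZIP, target, immediate early, T cell, B cell and myeloid lists, 2 to the cone and 3 to the bipolar markers higher. It changed no other printed call.

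Divided by marker sums, alternatives chosen after seeing the data, the AP-1 ratio of WT over cKO was 1.32 (glial), 0.854 (myeloid, 1.31 without cKO replicate 3) and 0.484 (T cell), against 1.95. The markers of these lists were themselves lower in cKO, which favoured smaller ratios. Less the median over all regions, 7 of 11 AP-1 regions were lower by at least 1, with a median of -1.40, against 27.2% of all regions. The share at gene ends was not taken on this scale. Within 3000 bp, 4 AP-1 genes had a peak in cKO library 1, and no share over all genes was taken at this distance. The 4 further regions had differences of -4.44 to -1.86. No paired analysis was possible because the ATAC-seq values are group means. The cause of these shifts was not tested. RNA depth is unknown, and with a pseudocount of 0.1 the fold changes of the low genes were -1.91 (*Maff*), -0.70 (*Fosl1*), -0.57 (*Fosl2*) and -0.96 (*Jund*).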
